A study of Danio rerio with 14 samples.

Results

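Fatty acid oxidation in zebrafish larvae was examined through 37 listed genes: the acyl-CoA synthetases that activate fatty acids, the carnitine shuttle, the enzymes of mitochondrial and peroxisomal beta-oxidation with their electron carriers, and both copies of the receptor PPAR alpha. The members were found through the RefSeq accession of each probe, by the symbol or synonym of that accession's gene. Accessions matched for 25978 of the 43603 probes, and other names on the array were not searched. Probes were found for 34 of the 37, with 76 probes between them, and these 34 stood among 12811 genes tested. No probe was matched to cpt1ab, cpt1b or eci1 by accession, so the carnitine palmitoyltransferase step at the outer membrane rested on cpt1aa alone.

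Whole larvae of the wild type AB strain were profiled on 1-colour microarrays at 5 days of age. From 3 h after fertilisation they were kept at 28 °C in E3, a dilute saline for zebrafish embryos, which in the exposed groups held reconstituted wastewater effluent, undiluted (1x) or at 0.5x, with 5 arrays for each. Effluent medium contained at most 0.05% DMSO, and the 4 control arrays came from larvae in E3 with 0.05% DMSO and no effluent. The medium was changed every 24 h, and each replicate was the pool of 1 well of 25 to 30 larvae. The p-values measure the spread between wells, together with any spread from slides and scan days. The sources used here do not say whether wells shared a clutch. Whole larvae were homogenised, so fewer cells of a type and less RNA per cell cannot be told apart in any value below.

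A fatty acid is first joined to coenzyme A, and then either enters mitochondria as a carnitine ester or is shortened in peroxisomes, which handle very long and branched chains. In both organelles a repeated cycle of oxidation, hydration, oxidation and thiolysis releases acetyl-CoA; acyl-CoA dehydrogenases open the cycle in mitochondria and pass electrons to the respiratory chain, whereas peroxisomal acyl-CoA oxidases pass them to oxygen. PPAR alpha is a nuclear receptor that binds fatty acids and fibrate drugs and activates many of these genes in mammalian liver.

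Levels are given as log2 signal less the 75th percentile of the same array, and differences as log2 fold changes. A gene was called when limma's adjusted p was under 0.05, and a gene with several probes is described by its brightest probe unless another is named. On each of the 14 arrays between 85.4% and 90.9% of probes were well above background, and each of the 34 members was well above background on all 14. The arrays were scanned on 2 days. Control replicates 1 and 2, 1x replicates 1 to 3 and 0.5x replicate 1 were scanned on day 1, and the others on day 2. Control replicates 1 to 4 lay on slides 1 to 4, the 1x arrays on slides 1 to 3 and the 0.5x arrays on slides 2 to 4. Slide and concentration can therefore not be fully told apart. Control replicates 1 and 2 stood apart from the other controls in markers of liver, gut, pancreas, heart and kidney, and each result below is therefore also given without them where they decide it.

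At 1x, 16 of the 34 members were higher than in control and 2 were lower, while 16 were not called. Of all genes tested, 10.3% were called higher and 16.2% lower in that comparison. Both comparisons with control share the same 4 control arrays. The median log2 fold change at 1x was 0.36 over the members and -0.05 over all genes tested. Array values did not overlap between 1x and control for 13 members that were higher and 2 that were lower, against 7.99% and 12.3% of all genes. At 0.5x limma called 4 members higher and 0 lower (14 and 0 at an unadjusted p under 0.05), with 4.38% and 4.3% of all genes called. The median was 0.22 over the members and -0.04 over all genes. No all-gene share is given for unadjusted counts, here or below. The shares of all genes called are at the stricter adjusted threshold, so unadjusted counts cannot be compared with them. Array values of 2 members (acox3 and acsl1b) were higher without overlap and those of 0 lower, against 4.96% and 5.97% of all genes. Both medians rested in part on control replicates 1 and 2: without them they were 0.21 at 1x and 0.09 at 0.5x, and 6 and 1 members were called, with 11.4% and 1.75% of all genes called in either direction.

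**Figure D1:**
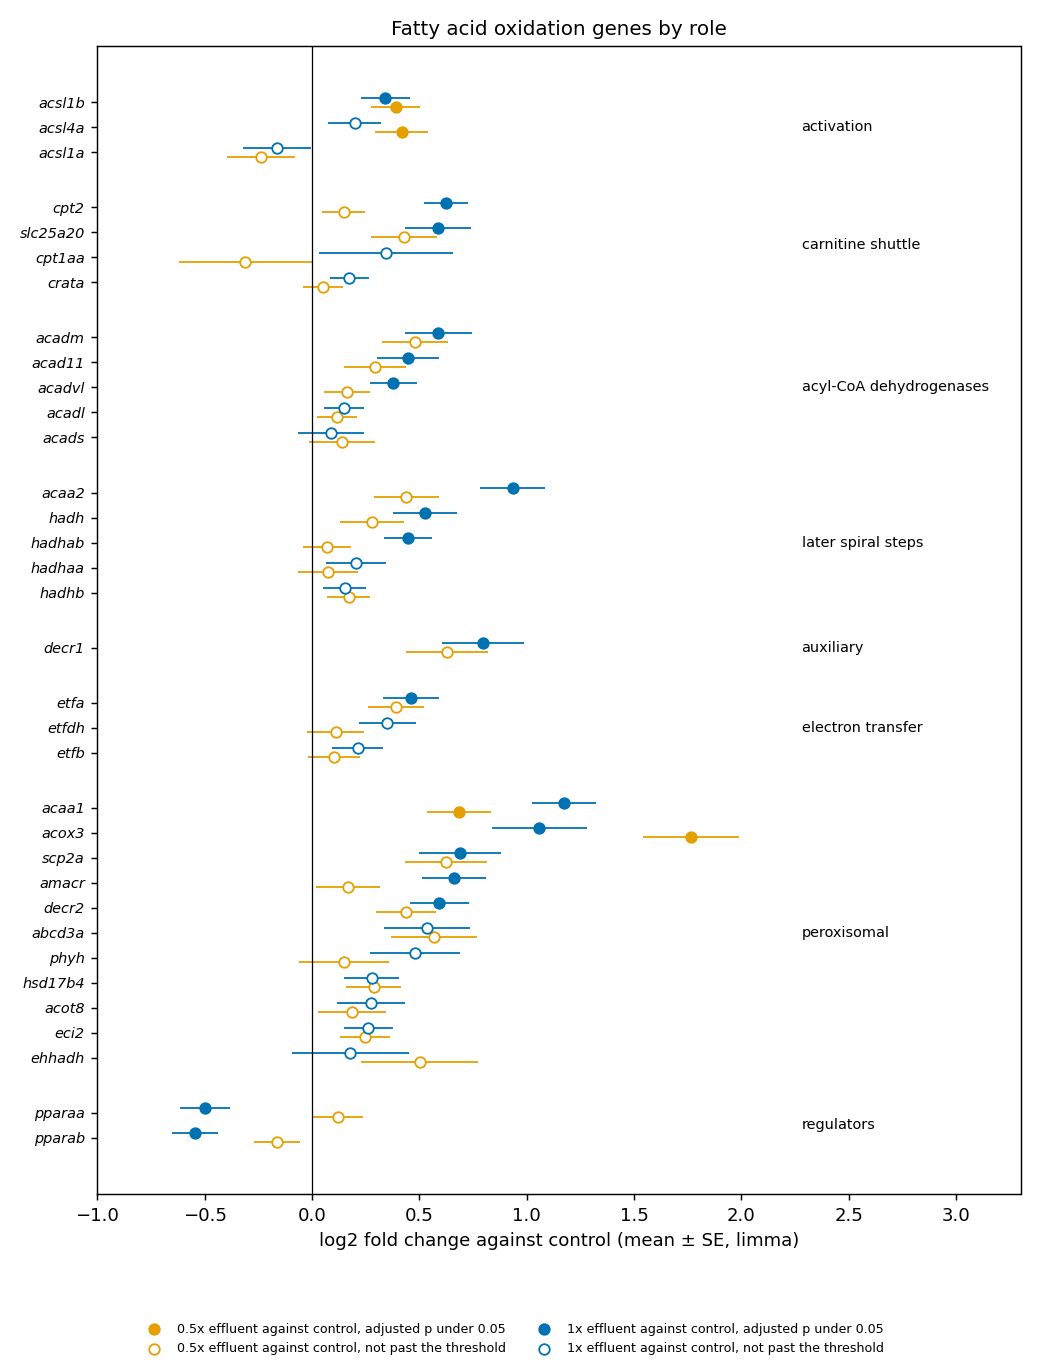
Log2 fold change against control (x axis, point ± SE from limma) of the 34 measured members, grouped by role; blue is 1x against control, orange 0.5x against control, and filled points passed an adjusted p of 0.05. All 11 peroxisomal members lie to the right of 0 at both concentrations, although ehhadh, amacr, hsd17b4 and acot8 each lay below 0 under at least 1 alternative treatment of the data; pparaa and pparab are the only filled points to the left.

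Thiolases carry out the last step of the cycle, and acaa1 and acaa2 rose at 1x. The peroxisomal thiolase acaa1 had levels of 0.32, 0.09, 0.43 and 0.79 in control replicates 1 to 4. Its levels were 1.19, 0.97, 1.32, 0.77 and 1.22 at 0.5x and 1.60, 1.51, 1.68, 1.74 and 1.37 at 1x. Every 1x array lay above every array of the other 2 groups, and 1 control array overlapped with 0.5x. The difference from control was 1.17 ± 0.15 (SE) at 1x, or 2.25-fold (adjusted p = 0.000422), and 0.69 ± 0.15 at 0.5x (adjusted p = 0.0147). A second acaa1 probe rose by 1.73 and 1.00. The rise at 1x held in all 27 alternative treatments of the data, at 0.95 to 1.45. At 0.5x, acaa1 lost its call without control replicate 2 (adjusted p = 0.0586), and within scan day 2 it was 0.46 (adjusted p = 0.265).

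Its mitochondrial counterpart acaa2 had levels of 2.37, 2.54, 3.21 and 2.91 in control. Levels at 0.5x were 3.18, 3.13, 3.34, 3.15 and 3.19, and at 1x they were 3.66, 3.62, 3.51, 3.94 and 3.75. The 1x arrays lay above all others, while 0.5x overlapped with 1 control array, replicate 3. Against control, 1x differed by 0.93 ± 0.15, or 1.91-fold (adjusted p = 0.00152), and all 4 acaa2 probes were called higher there. At 0.5x it was 0.44 ± 0.15 and was not called (adjusted p = 0.0763). Within scan days 1 and 2 the difference at 1x was 1.14 and 0.78, and it was called under all 27 alternatives.

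In the carnitine shuttle, cpt2 carried the clearest difference. It encodes the inner-membrane transferase that turns acylcarnitine back into acyl-CoA in the matrix. Its levels were 0.81, 0.72, 0.99 and 0.81 in control, 0.91, 0.92, 1.05, 1.02 and 1.01 at 0.5x, and 1.51, 1.26, 1.36, 1.66 and 1.48 at 1x. The 1x arrays did not overlap with either other group, whereas control and 0.5x overlapped. Against control the 1x value was higher by 0.62 ± 0.10, or 1.54-fold (adjusted p = 0.00151), and 0.15 ± 0.10 at 0.5x (adjusted p = 0.329). It was the one member called higher at 1x than at 0.5x, by 0.48 ± 0.10 (adjusted p = 0.013). Within scan days 1 and 2 the difference at 1x was 0.61 and 0.67, and without control replicates 1 and 2 it was 0.56. The difference between the concentrations was not called with the authors' deposited matrix, where 0% of all genes were called. Scan day 1 holds 1 array at 0.5x, so no call between the concentrations is given for it.

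The other shuttle genes differed among themselves. The carnitine-acylcarnitine translocase slc25a20 rose at 1x by 0.59 ± 0.15 (adjusted p = 0.0146), and lost its call without control replicate 1 (adjusted p = 0.0514). The carnitine acetyltransferase crata was not called. The outer-membrane transferase cpt1aa, which in mammals controls entry of fatty acids into mitochondria, is named here after its values were seen. Its levels were -1.74, -1.85, -2.77 and -3.18 in control, -1.92, -2.78, -2.97, -2.86 and -2.94 at 0.5x, and -1.74, -1.79, -1.70, -2.52 and -2.45 at 1x. In every group the arrays of scan day 1 lay above those of day 2, with no overlap between the days. Differences from control were 0.34 ± 0.31 at 1x and -0.31 ± 0.31 at 0.5x (adjusted p = 0.419 and 0.506). Within scan days 1 and 2 the difference at 1x was 0.05 and 0.49, also not called.

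**Figure D2:**
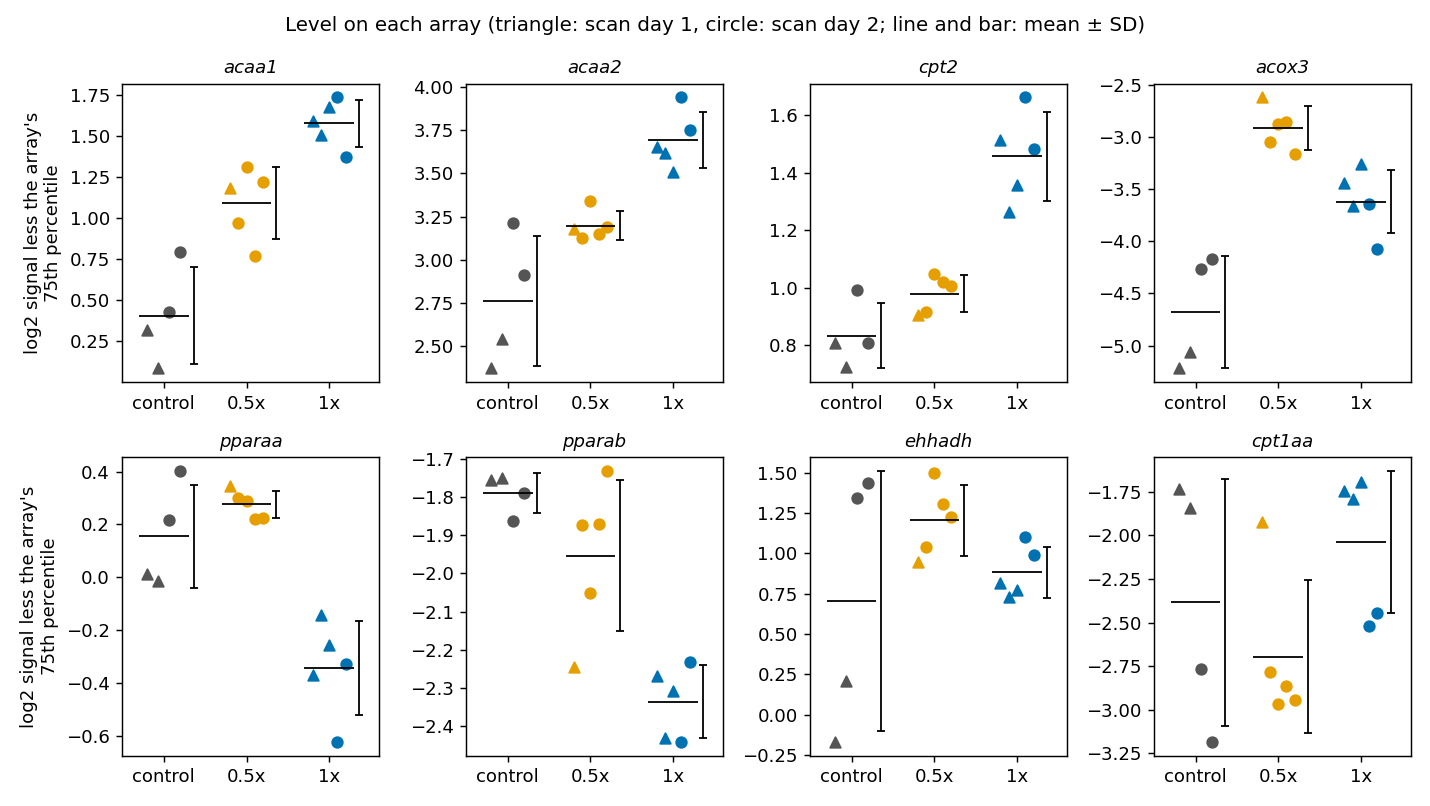
Level (log2 signal less the array's 75th percentile, y axis) of 8 members on each of the 14 arrays in control, 0.5x and 1x, each panel on its own scale; triangles are scan day 1, circles scan day 2, and the line and bar give mean ± SD. For acaa1, acaa2 and cpt2 the 1x arrays lie above all others, acox3 is highest at 0.5x, both PPAR alpha copies are lowest at 1x, and cpt1aa separates by scan day in every group.

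The acyl-CoA dehydrogenases open the mitochondrial cycle, each for its own chain lengths. At 1x, acadm (medium chain) rose by 0.59 ± 0.15, acadvl (very long chain) by 0.38 ± 0.11 and acad11 by 0.45 ± 0.14, with adjusted p of 0.0146, 0.0214 and 0.0337. The gene acad11 is counted as mitochondrial here by its enzyme family, and where its protein lies was not examined. All 3 lost their calls without control replicate 1, at adjusted p of 0.0513 for acadm and 0.071 for acadvl; acad11 did so also without control replicate 2 or 1x replicate 1, 2 or 3 (adjusted p 0.0648 to 0.11). The probes of acadvl disagreed: a dimmer one was called lower, at -0.56 (adjusted p = 0.0364). The brightest probes of acads (short chain) and acadl (long chain) were not called, at 0.09 and 0.15. Dimmer probes of both were called higher, at 0.85 and 1.07. At 0.5x limma called 0 of the 5 dehydrogenases by their brightest probes (1, acadm, at an unadjusted p under 0.05), with differences from 0.12 to 0.48. The acadvl probe called lower at 1x was called lower at 0.5x too, at -0.71 (adjusted p = 0.0313).

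Further along the cycle, hadhab encodes a copy of the alpha subunit of the trifunctional protein, which hydrates and oxidises long chains at the inner membrane. Its levels were 2.02, 2.27, 2.19 and 2.14 in control, 2.33, 2.11, 2.31, 2.12 and 2.25 at 0.5x, and 2.89, 2.39, 2.63, 2.59 and 2.51 at 1x. The 1x arrays lay above all others, and control and 0.5x overlapped. From control to 1x the difference was 0.45 ± 0.11 (adjusted p = 0.0117), against 0.07 ± 0.11 at 0.5x (adjusted p = 0.69). Without control replicates 1 and 2 the 1x difference was 0.44 (adjusted p = 0.0519). The short-chain dehydrogenase hadh rose at 1x by 0.53 ± 0.15 (adjusted p = 0.0191), a call that needed both control replicates 1 and 2 (adjusted p 0.0629 to 0.0638 when either was left out).

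The partner subunits behaved less clearly. The second alpha copy hadhaa and the beta subunit hadhb are next to each other in the genome table. Their brightest probes were not called, at 0.21 and 0.15. Both dimmer hadhb probes were called higher, at 0.79 and 1.07 (adjusted p = 0.0063 and 0.00411), so the call of hadhb depended on the probe. Of the 4 hadhaa probes, 2 lay above 0 and 2 below, and none passed.

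Among the auxiliary and electron-transfer genes, decr1 encodes the mitochondrial dienoyl-CoA reductase needed for polyunsaturated chains. Its levels were -1.10, -0.88, -0.15 and -0.01 in control, 0.22, -0.06, 0.17, 0.20 and -0.07 at 0.5x, and 0.27, 0.27, 0.45, 0.12 and 0.21 at 1x. Control replicates 1 and 2 were the lowest of all arrays, and the 1x arrays lay above every control. The difference at 1x was 0.80 ± 0.19 (adjusted p = 0.00991), but 1.32 within scan day 1 and 0.25 within scan day 2, where it was not called (adjusted p = 0.331). A dimmer decr1 probe was at 0.19 and was not called. The electron transfer flavoprotein subunit etfa rose by 0.46 ± 0.13 (adjusted p = 0.0196), but not when control replicate 1 or 2 was left out (adjusted p 0.065 to 0.068). The other subunit etfb and the dehydrogenase etfdh, which hands the electrons to ubiquinone, were not called by their brightest probes, at 0.21 and 0.35. A dimmer etfb probe was called higher, at 0.62 (adjusted p = 0.0146).

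Of the 18 measured members of these 5 mitochondrial roles, limma thus called 10 higher at 1x and 0 at 0.5x (11 and 5 at an unadjusted p under 0.05). Of all genes, 10.3% and 4.38% were called higher. The median of the 18 was 0.41 at 1x, 0.15 at 0.5x and 0.16 for 1x against 0.5x, beside -0.05, -0.04 and -0.02 over all genes. With control replicates 1 and 2 left out, 2 of the 18 were called at 1x (cpt2 and acaa2), with a median of 0.24. Of all genes, 11.4% were then called in either direction.

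The peroxisomal gene acox3 rose at both concentrations, with the greater difference at the lower one. It encodes an acyl-CoA oxidase, the enzyme class that opens the peroxisomal cycle and releases hydrogen peroxide. Its levels were -5.22, -5.06, -4.27 and -4.17 in control, -2.62, -3.05, -2.87, -2.85 and -3.17 at 0.5x, and -3.45, -3.66, -3.26, -3.65 and -4.08 at 1x. The 3 groups did not overlap: every 0.5x array lay above every 1x array, and every 1x array above every control. The difference was 1.77 ± 0.22 at 0.5x, or 3.40-fold (adjusted p = 0.000563), and 1.06 ± 0.22 at 1x (adjusted p = 0.00556). These differences rest on dim control values. Control replicate 1, at -5.22, lay near -5.62, the lowest level well above background on its array. Another acox3 probe was well above background on 3 of the 4 control arrays. All 4 acox3 probes were called higher at 0.5x, and the call held under all 27 alternatives, at 0.85 to 2.52. At 1x only 2 of the 4 probes were called, and another was at 0.14 (adjusted p = 0.477). The brightest probe at 1x was not called without control replicates 1 and 2 (0.60, adjusted p = 0.0657), within scan day 2 (0.35, adjusted p = 0.263) or with a background correction of the spot medians (0.29, adjusted p = 0.0596).

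Between the concentrations acox3 was lower at 1x by -0.71 ± 0.21, just outside the threshold (adjusted p = 0.0738). Another acox3 probe was called lower there, at -0.84 (adjusted p = 0.0032). Without control replicates 1 and 2, which enter this comparison only through the shared fit, the brightest probe also passed (adjusted p = 0.014).

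The racemase amacr, which prepares branched chains for oxidation, had levels of -5.03, -4.44, -4.36 and -4.48 in control, -4.11, -4.64, -4.43, -4.47 and -4.41 at 0.5x, and -3.77, -3.94, -3.74, -3.95 and -4.18 at 1x. The 1x arrays lay above every control, and 0.5x overlapped with both groups. At 1x the difference was 0.66 ± 0.15 (adjusted p = 0.00781), and 0.17 ± 0.15 at 0.5x (adjusted p = 0.453). With a background correction of the spot medians the 1x difference was -0.01. Its 1 probe is dim, and amacr was the only called member to change direction under an alternative.

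The peroxisomal dienoyl-CoA reductase decr2 had levels of -0.57, -0.30, -0.17 and 0.21 in control, 0.37, 0.05, 0.24, 0.35 and 0.15 at 0.5x, and 0.34, 0.57, 0.42, 0.28 and 0.33 at 1x. The 1x arrays lay above every control, and 0.5x overlapped with control. The difference at 1x was 0.59 ± 0.14 (adjusted p = 0.00904), and 0.28 within scan day 2, where it was not called (adjusted p = 0.321). The sterol carrier protein scp2a, whose mammalian counterpart includes a thiolase for branched chains, rose at 1x by 0.69 ± 0.19 (adjusted p = 0.0179), but not when either control replicate 1 or 2 was left out (adjusted p 0.0515 to 0.0528).

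The other 6 peroxisomal members were not called at either concentration by their brightest probes. They were the fatty acyl-CoA transporter abcd3a, the bifunctional enzymes hsd17b4 and ehhadh, the thioesterase acot8, the isomerase eci2 and the alpha-oxidation enzyme phyh. Their brightest probes lay between 0.18 and 0.54 at 1x. Dimmer probes of hsd17b4, acot8, eci2 and phyh were called higher there, at 0.44, 0.84, 0.98 and 0.40 (adjusted p 0.0192 to 0.043). The values of ehhadh, a classic PPAR alpha target in rodents, are given after they were seen. Its levels were -0.17, 0.21, 1.34 and 1.44 in control, 0.95, 1.04, 1.5, 1.31 and 1.22 at 0.5x, and 0.82, 0.73, 0.77, 1.1 and 0.99 at 1x. Control replicates 1 and 2 were below all exposed arrays and control replicates 3 and 4 above all 1x arrays. The difference at 1x was 0.18 ± 0.27, changing to -0.51 without control replicates 1 and 2 and to -0.11 without control replicate 1; none of these was called (adjusted p = 0.65 and 0.0529 for the first 2).

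Over the 11 peroxisomal members the median was 0.54 at 1x and 0.44 at 0.5x, with 5 and 2 called higher. Of all genes, 10.3% and 4.38% were called higher, with medians of -0.05 and -0.04. All 11 lay above 0 at both concentrations as reported, but ehhadh, amacr, hsd17b4 and acot8 each lay below 0 under at least 1 alternative. Leaving out control replicates 1 and 2 gave medians of 0.27 and 0.10, with 2 (acaa1 and amacr) and 1 (acox3) called. Of all genes, 11.4% and 1.75% were then called in either direction. The median for 1x against 0.5x was 0.07, and 0 of the 11 were called by limma, with 3 (acaa1, amacr and acox3) at an unadjusted p under 0.05.

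Both copies of the PPAR alpha gene were lower at 1x. Levels of pparaa were 0.01, -0.01, 0.22 and 0.40 in control, 0.35, 0.30, 0.29, 0.22 and 0.23 at 0.5x, and -0.37, -0.14, -0.26, -0.62 and -0.33 at 1x. The 1x arrays lay below all others, and control and 0.5x overlapped. The difference at 1x was -0.50 ± 0.12, a level 1.41-fold lower (adjusted p = 0.00871), and at 0.5x it was 0.12 ± 0.12 (adjusted p = 0.484). Against 0.5x, pparaa was lower at 1x by -0.62 ± 0.11 (adjusted p = 0.00596), the one member called lower in that comparison. All 3 pparaa probes lay below 0 at 1x against control, 2 of them called. At 0.5x against control, 2 of the 3 lay below 0, at -0.68 and -0.36, and were not called (adjusted p = 0.0563 and 0.0669). In 1x against 0.5x, 2 were called lower and 1 lay above 0, at 0.44 (adjusted p = 0.213). Within scan days 1 and 2 the difference from control was -0.26 (adjusted p = 0.114) and -0.79 (adjusted p = 0.0237). The call against 0.5x was lost with the mean of probes, with slide as a block and with the deposited matrix. With that matrix 0% of all genes were called between the concentrations.

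Levels of pparab were -1.76, -1.75, -1.86 and -1.79 in control, -2.24, -1.87, -2.05, -1.87 and -1.73 at 0.5x, and -2.27, -2.43, -2.31, -2.44 and -2.23 at 1x. The 1x arrays lay below every control, and 0.5x replicate 1, the only 0.5x array of scan day 1, lay among the 1x arrays. The difference at 1x was -0.55 ± 0.11, a level 1.46-fold lower (adjusted p = 0.00442), and -0.16 ± 0.11 at 0.5x (adjusted p = 0.311). For 1x against 0.5x it was -0.38 ± 0.10 (adjusted p = 0.0509). When control replicates 1 and 2 were left out, the differences of pparaa and pparab at 1x were -0.65 and -0.51, both called. Within scan day 2 alone pparab was not called at 1x (adjusted p = 0.0814). In pparaa, control replicates 1 and 2 lay below the other controls and every 0.5x array, whereas in pparab they were the highest controls.

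Of the 3 acyl-CoA synthetases, acsl1b was called higher at both concentrations, by 0.34 ± 0.11 at 1x and 0.39 ± 0.11 at 0.5x (adjusted p = 0.0385 and 0.0467), and acsl4a at 0.5x by 0.42 ± 0.12 (adjusted p = 0.048). These calls lay near the threshold: acsl1b kept its call in 12 of 27 alternatives at 1x and in 9 of 27 at 0.5x, and acsl4a in 6 of 27. The brightest probe of acsl1a was not called at either concentration, at -0.16 and -0.24. A dimmer acsl1a probe was called lower at both, at -0.40 (adjusted p = 0.0459) and -0.58 (adjusted p = 0.0249).

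Taking 1x against 0.5x directly, 1 member (cpt2) was called higher and 1 (pparaa) lower, with 1.67% and 2.65% of all genes called. The median was 0.11 over the members and -0.02 over all genes. Array values of these 2 groups were apart for cpt2, hadhab, acaa2 and acaa1, which were higher at 1x, or for pparaa, acox3 and acsl4a, which were lower, against 4.46% and 5.73% of all genes. The differences of hadhab, acaa2, acaa1 and amacr were 0.38, 0.50, 0.49 and 0.49, with adjusted p of 0.0576 to 0.0679. Without control replicates 1 and 2, 5 members were called higher (these 4 and cpt2) and 3 lower (acox3, pparaa and pparab). Of all genes, 9.27% were then called in either direction.

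**Figure D3:**
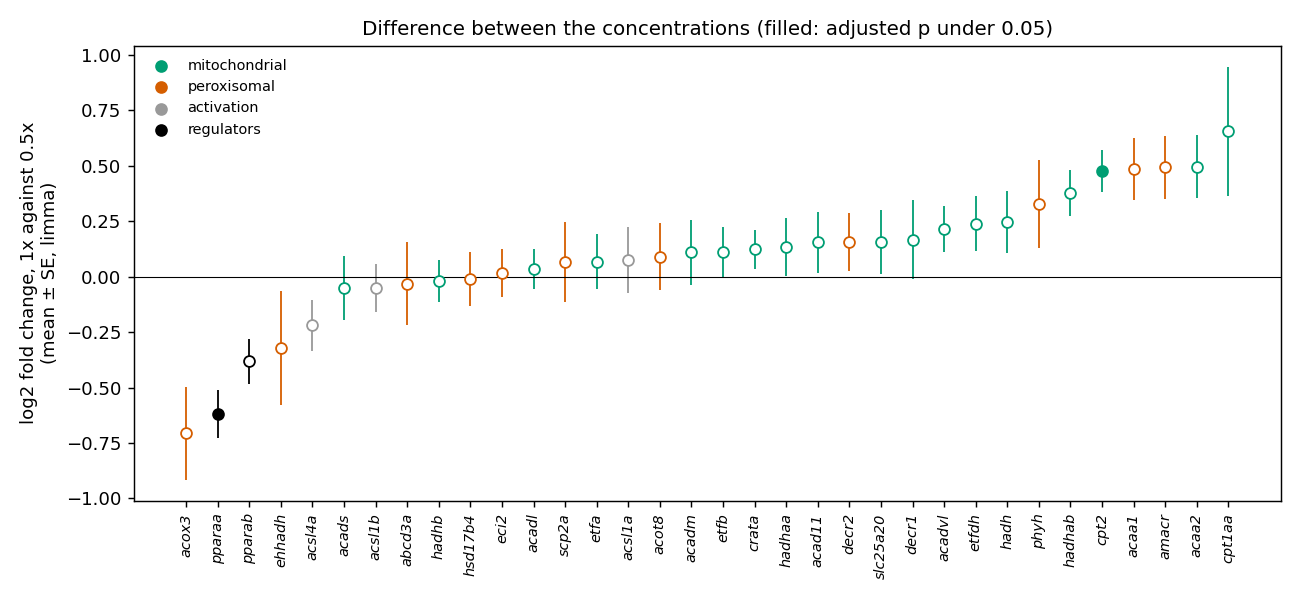
Log2 fold change of 1x against 0.5x (y axis, point ± SE from limma) for the 34 measured members, ordered by value and coloured by role; filled points passed an adjusted p of 0.05. The points run from acox3 at -0.71 to cpt1aa at 0.66, and pparaa and cpt2 are filled.

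The members were also counted by probe, with up to 4 probes for 1 gene, so these counts are not of separate genes. At 1x, 64 of 76 probes lay above 0, 40 were called higher and 5 lower. At 0.5x, 64 lay above 0, 8 were called higher and 2 lower. In 1x against 0.5x, 5 were called higher and 3 lower. The share over all kept probes is not given here. By brightest probes, 10.3% of all genes were called higher and 16.2% lower at 1x, and 4.38% and 4.3% at 0.5x. Between the concentrations the shares were 1.67% and 2.65%. Of the 42 dimmer probes, 25 had a higher log2 fold change at 1x than the brightest probe of the same gene and 17 a lower one. Every dimmer probe was the higher for acadm, hadh, hadhb, slc25a20, etfa, etfb, acads, acadl, acaa1, ehhadh, hsd17b4, acot8, decr2 and eci2. These genes are named after their values were seen. Dimmer probes lay lower for acsl1a (-0.40 and -0.44), acadvl (-0.56), hadhaa (-0.42), crata (-0.16), decr1 (0.19) and acox3 (0.14), among others.

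Control replicates 1 and 2 were low in the enzymes and in several tissue markers alike. The mean deviation of the 11 peroxisomal members from the mean of all arrays was -0.78, -0.57, -0.14 and -0.04 in control replicates 1 to 4, and ran from 0.05 to 0.27 at 1x. That of the 18 mitochondrial members was -0.41, -0.34, -0.04 and -0.10 in the controls and 0.13 to 0.26 at 1x. At 0.5x the 18 lay between -0.09 and 0.06, and the 11 peroxisomal members between -0.002 and 0.22. By this mean deviation every 1x array was above every control array in both groups of enzymes, at a smaller distance from control replicates 3 and 4. In the peroxisomal members every 0.5x array was above every control array too, whereas in the mitochondrial members 0.5x and control overlapped. By the log2 of the summed level the peroxisomal groups overlapped, with control replicate 4 at 5.74 and 1x replicate 5 at 5.72.

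In the same controls the deviation of the hepatocyte markers was -1.76, -1.05, 0.01 and 0.37, that of the enterocyte markers -1.13, -0.88, 0.17 and 0.20, and that of the exocrine pancreas markers -2.64, -1.83, 0.75 and 1.2. The log2 of the summed hepatocyte marker level (12 of 14 genes measured) ran from 7.77 to 9.41 in control, from 9.09 to 9.38 at 0.5x and from 9.16 to 9.23 at 1x. For enterocytes (12 of 13 genes) it ran from 6.71 to 8.02, 8.04 to 8.40 and 8.02 to 8.20, and for exocrine pancreas (14 of 15) from 7.66 to 11.21, 10.49 to 10.92 and 9.70 to 10.34. Heart markers deviated by -1.45 and -0.86 and kidney tubule markers by -0.88 and -0.64 in control replicates 1 and 2, while neuron and photoreceptor markers were high there, at 0.56 and 0.40 and at 0.55 and 0.46. Skeletal muscle markers deviated by 0.28 and 0.07. All measured markers of these 8 lists were well above background on all 14 arrays. Their part in the differences from control was not tested.

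**Figure D4:**
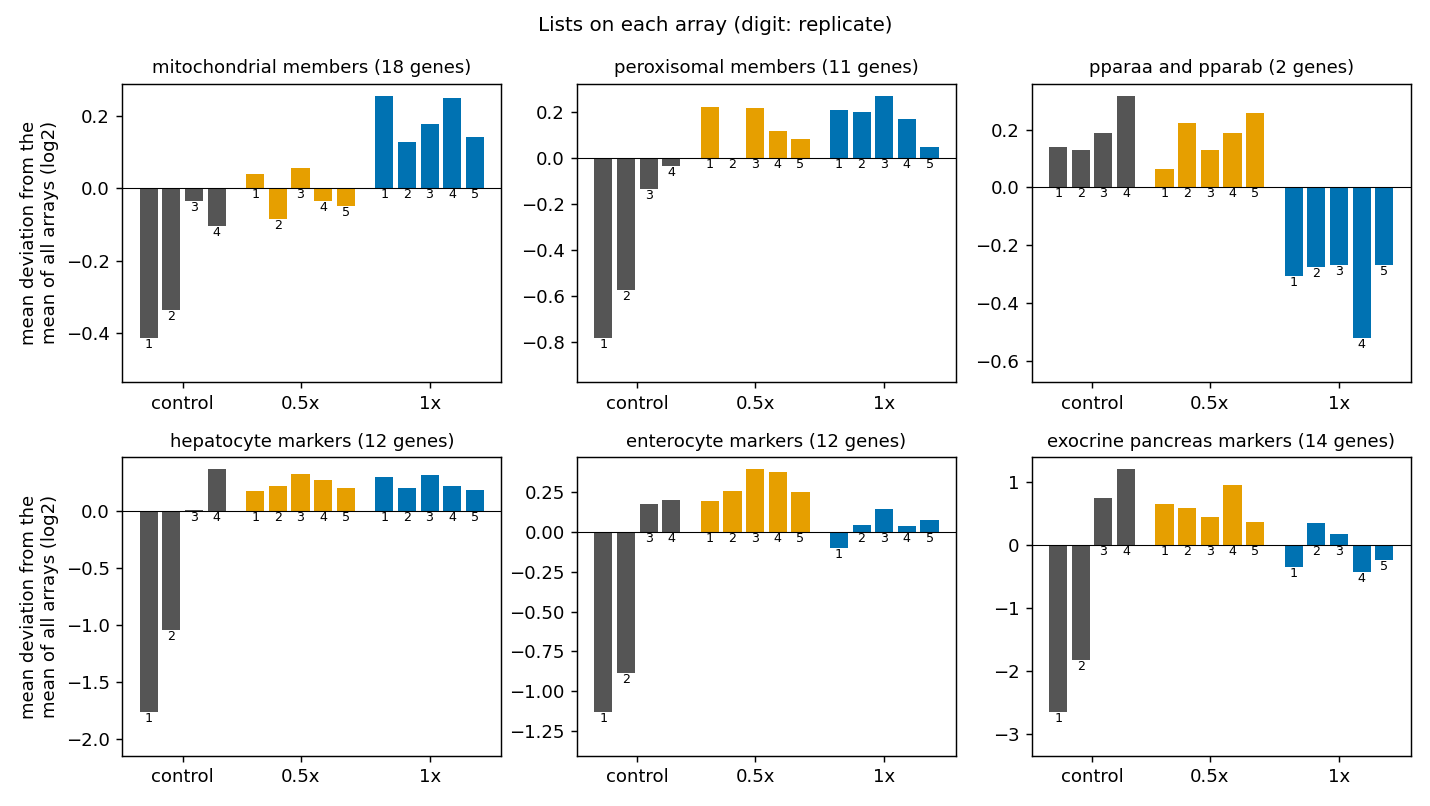
Mean deviation from the mean of all 14 arrays (log2, y axis, one bar per array with its replicate number) for mitochondrial members, peroxisomal members, both PPAR alpha copies and 3 lists of tissue markers; grey is control, orange 0.5x and blue 1x. Control replicates 1 and 2 are the lowest arrays in both enzyme groups and in hepatocyte, enterocyte and exocrine pancreas markers, whereas the 1x arrays are the lowest in the panel of pparaa and pparab.

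Of 36 measured genes for peroxisome assembly, transport and other peroxisomal pathways, 8 were called higher and 1 lower at 1x, beside 10.3% and 16.2% of all genes, with a median of 0.16. At 0.5x the counts were 3 and 0, beside 4.38% and 4.3% of all genes, with a median of 0.10. The 3 with the smallest p at 1x were crot, the peroxisomal carnitine octanoyltransferase (0.53 ± 0.10, adjusted p = 0.00435), the reductase dhrs4 (0.88 ± 0.17, adjusted p = 0.00436) and the isocitrate dehydrogenase idh1 (0.59 ± 0.16, adjusted p = 0.0155). At 0.5x crot rose by 0.69 ± 0.10 (adjusted p = 0.00196), and without control replicates 1 and 2 it was still called at both concentrations, though not with the mean of its probes; idh1 was no longer called without these controls (adjusted p = 0.112). The one called lower at 1x was pex11a, a gene of peroxisome division, at -0.41 (adjusted p = 0.0485), singled out after its value was seen.

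Of 34 measured genes listed as other mitochondrial fatty acid and acyl-CoA genes, 12 were called higher and 2 lower at 1x (10.3% and 16.2% of all genes), with a median of 0.31. At 0.5x, 3 and 0 were called (4.38% and 4.3% of all genes), with a median of 0.26. Leading by p at 1x were the uncoupling protein ucp2 (0.69 ± 0.11, adjusted p = 0.00175), the propionyl-CoA carboxylase subunit pcca (0.70 ± 0.12, adjusted p = 0.00177) and ucp3 (0.76 ± 0.13, adjusted p = 0.00198). The level of ucp3, a muscle uncoupling protein whose gene in mammals answers to fatty acids, was 0.30 ± 0.27 (SD, n = 4) in control, 2.20 ± 0.03 (n = 5) at 0.5x and 1.06 ± 0.18 (n = 5) at 1x. As with acox3, the greater difference was at 0.5x: 1.90 ± 0.13 (limma adjusted p = 3.87e-06), and 1x lay below 0.5x by -1.14 ± 0.12 (adjusted p = 0.000225). It was 1.68 at 0.5x without control replicates 1 and 2 (adjusted p = 0.000106).

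Among 34 measured genes for PPAR partners, coactivators and fasting or PPAR targets, 1 was called higher and 3 lower at 1x, where 10.3% and 16.2% of all genes were called, and 4 and 0 at 0.5x, where 4.38% and 4.3% were. The medians were -0.02 and 0.16. In 1x against 0.5x, 5 were called lower and 0 higher (8 and 0 at an unadjusted p under 0.05), and the median was -0.17. Of all genes, 2.65% were called lower in that comparison. The lipid phosphatase and coactivator lpin1a was at 2.63 ± 0.24 (SD, n = 4) in control, 3.30 ± 0.26 (n = 5) at 0.5x and 1.83 ± 0.12 (n = 5) at 1x. It fell at 1x by -0.79 ± 0.15 (SE, limma adjusted p = 0.00303) and rose at 0.5x by 0.68 ± 0.15 (adjusted p = 0.014), the latter not without control replicates 1 and 2 (adjusted p = 0.124). The lipoprotein lipase lpla fell at 1x by -0.50 ± 0.10 (adjusted p = 0.00473) and was at 0.02 at 0.5x, and g0s2, an inhibitor of triglyceride lipase in mammals, rose at 1x by 1.18 ± 0.29 (adjusted p = 0.0108) but was not called without control replicates 1 and 2 (adjusted p = 0.11). The third gene called lower at 1x was the kinase pdk3b, at -0.57 (adjusted p = 0.0446).

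The 5 genes of that list lower at 1x than at 0.5x, named after their values were seen except for lpin1a and lpla, were lpin1a (-1.47 ± 0.14), lpla (-0.52 ± 0.10), the fatty acid binding protein fabp1a (-1.0 ± 0.21) and the pyruvate dehydrogenase kinases pdk2b and pdk4 (-0.63 ± 0.13 and -0.63 ± 0.14), which spare glucose during fasting. Limma's adjusted p ran from 9.11e-05 to 0.0191. At 0.5x pdk2b was above control by 0.87 ± 0.14 (adjusted p = 0.00266) and pdk4 by 0.49 ± 0.15 (adjusted p = 0.0488), while at 1x they were at 0.24 and -0.14 and were not called. Within scan day 2, 6 genes of the list were called lower at 1x than at 0.5x. Of all genes, 2.73% were then called in either direction. Day 1 holds 1 array at 0.5x, so no count is given for it.

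Of 10 measured ketone body genes, 3 were called higher at 1x and 1 at 0.5x, against 10.3% and 4.38% of all genes. They were oxct1b, which starts ketone use (0.83 ± 0.23 at 1x and 0.83 ± 0.23 at 0.5x, adjusted p = 0.0174 and 0.0374), acat2 (0.58 ± 0.15, adjusted p = 0.0121) and aacs (0.49 ± 0.15, adjusted p = 0.0272). Without control replicates 1 and 2, acat2 was the one of these still called (adjusted p = 0.0455).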

How the data were processed

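From each replicate 200 ng of RNA was labelled with Cy3, as the labels describe. The authors deposited Agilent Feature Extraction scanner files (version 10.7.3.1 per the file headers); their processed signal, per the file headers, is an intensity on a linear scale with background already subtracted. The deposited matrix holds log2 values for 36346 probes. How it was made is not stated in the sources used here. It matched the percentile-scaled log2 signal centred per slide (r of 0.872 and 0.901 on slide 1, 1.00 elsewhere, column medians -0.0662 to 0.110), its direction followed, and it served as an alternative.

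The 14 arrays carried 43603 probes, with 73 outlier spots left out and 0 saturated. Spots were averaged per probe, and each array's 75th percentile was subtracted on the log2 scale. A probe was kept (38803) where 4 or more arrays of any group had it well above background. Accessions of 25978 probes matched the RefSeq table of GRCz12tu, used for names and gene order only; 1 kept probe per gene, the brightest, stood for it. Limma 3.58.1 (R 4.3.3; lmFit, eBayes, 3 group means, all 14 arrays, no block) gave every adjusted p, by Benjamini-Hochberg over the kept probes. The code was tested on simulated data. Precision is limited by the number of arrays: the median SE was 0.164 against control and 0.154 between concentrations.

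Values on every array are given for the 4 peroxisomal and 4 mitochondrial members with the smallest p at 1x, for members called lower, for the 4 with the smallest p between concentrations and for both PPAR alpha genes; other lists are named by their 3 smallest p at 1x. Members, lists and this rule were chosen with earlier results of these data known. The 27 alternatives were other background correction, normalization, probe filters, the matrix, probe means, blocks (replicate, slide, scan day), single scan days, compared groups alone, and arrays left out.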

Additional observations from a re-analysis of the deposited data

Results flagged for a closer look

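Single arrays lay far from the rest of their group in 4 of 102 groups of member values examined by Dixon's criterion, which flags about 1 group in 20 by chance. In cpt1aa, 0.5x replicate 1 had a level of -1.92 while the others lay between -2.97 and -2.78. In phyh, the same array had -0.63 while the others lay between -1.32 and -1.26; it is the only 0.5x array of scan day 1. In crata, control replicate 1 had 0.68 against 0.80 to 0.83 in the other controls. In acot8, 1x replicate 5 had -2.10 against -2.37 to -2.32 in the others.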

How the results depend on the processing

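The 18 members called at 1x, the 4 called at 0.5x and the 2 called between the concentrations became 4, 1 and 4 within scan day 2 and 6, 1 and 8 without control replicates 1 and 2. Of all genes, 26.6%, 8.68% and 4.32% were called in either direction as reported. The shares were 4.15%, 2.17% and 2.73% within scan day 2, and 11.4%, 1.75% and 9.27% without control replicates 1 and 2. Of the settings that moved the 0.5x count by over 1.5 times, the deposited matrix, no filter on dim probes and slide as a block gave 2. Of all genes, 7.98%, 6.66% and 6.50% were then called in either direction. The 2 compared groups alone gave 1, with 2.73% of all genes. Scan day 1 alone, which holds 1 array at 0.5x, gave a median of 0.50. Between concentrations, normexp, quantile normalization and the mean of probes each gave 6, scan day as a block 4, slide as a block 1, the compared groups alone 8, and the matrix and scan day 1 gave 0. Leaving out single arrays gave 10 to 23, 1 to 15 and 2 to 6. Of all genes, 14.3% to 31.9%, 2.85% to 24.0% and 1.97% to 11.3% were then called in either direction. The count at 1x was 10 without control replicate 1, with 14.3% of all genes called. At 0.5x it was 2, 1, 11 and 15 without control replicates 1 to 4. Of all genes, 3.06%, 2.85%, 15.5% and 24.0% were then called. The 0.5x count was 2 without 1x replicate 1, 2 or 4 or any 0.5x replicate, with 3.86% to 7.74% of all genes. Between concentrations it was 5 without control replicate 1 or 4 and 6 without 0.5x replicate 1, with 5.15%, 5.60% and 11.3% of all genes. Replicate numbers are shared by the labels, and deviations of same-numbered arrays correlated at -0.224 to 0.493. Every pair scanned on different days had a negative value, and same-day pairs ran from -0.0594 to 0.493. Scan day differs among the pairs, so this check cannot decide whether replicate numbers pair samples. The replicate block gave 19, 4 and 2 calls, with 29.2%, 9.09% and 4.51% of all genes. The share of calls that were higher among all genes at 1x was 38.8%, 28.5% with normexp and 48.7% with quantile normalization, and at 0.5x 50.4% and 60.9% with quantile normalization; the all-gene median at 1x was -0.10 with normexp.

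Directions turned in these cases, among others. With normexp, chosen after seeing the files because a planned signal column is not in them, amacr was -0.010 at 1x and -0.11 at 0.5x. With the matrix, cpt1aa was 0.047 at 0.5x and ehhadh 0.066 for 1x against 0.5x; with slide as a block they were 0.057 and 0.10. With the mean of probes, hadhab was -0.033 and pparaa -0.31 at 0.5x. Within scan day 1, idh1 was -0.016 for 1x against 0.5x. Within scan day 2, ehhadh was -0.34 and hsd17b4 -0.021 at 1x, and at 0.5x cpt1aa was 0.088, ehhadh -0.12, amacr -0.061 and pparaa -0.050. Without control replicates 1 and 2, ehhadh was -0.51 and fabp1b.1 -0.031 at 1x, and cpt1aa 0.28, ehhadh -0.19 and pparaa -0.033 at 0.5x. Without these controls acads, acot8, hadhaa, etfdh, etfb and acsl1a also turned at 0.5x. At 1x acads, acot8, hadhaa, etfb, acsl4a and acsl1a did. Of these, acsl1a turned from lower to higher and the others from higher to lower. The 0.5x means of acads, acot8, hadhaa and etfdh were 1.87, -2.38, 0.55 and 2.85. These, and the acads mean of 1.82 at 1x, lay below control replicates 3 and 4. Over single arrays left out, ehhadh at 1x ran from -0.11 (without control replicate 1) to 0.42. Of these only amacr at 1x had been called. The causes were not tested. Leaving out 1 array lost the call of 8 of 18 members at 1x, 3 of 4 at 0.5x and 0 of 2 between concentrations. At 1x, acsl1b did so without control replicates 1, 2 or 4, 0.5x replicates 2 to 4 or 1x replicates 1, 2, 4 or 5 (adjusted p 0.0500 to 0.111). At 0.5x, acsl1b and acsl4a did so without control replicate 1 or 2, any 0.5x replicate or 1x replicates 1, 2 or 4, and acsl4a also without 1x replicates 3 or 5 (adjusted p 0.0579 to 0.161).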

Other observations

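Some other genes of the lists, picked after their values were seen, differed between the concentrations or from control by limma. The sterol carrier protein scp2b was higher at 1x than at 0.5x by 0.78 ± 0.13 (adjusted p = 0.00483), with 0.47 and -0.31 against control, whereas its paralog scp2a differed between the concentrations by 0.07 ± 0.18 (adjusted p = 0.851). The peroxisomal tether acbd5a was higher at 1x than at 0.5x by 0.45 ± 0.10 (adjusted p = 0.0229), and the lipoyltransferase lipt1 by 0.55 ± 0.13 (adjusted p = 0.0243). The fatty acid binding protein fabp1b.1 rose at 0.5x by 1.28 ± 0.31 (adjusted p = 0.0228), and was 0.47 without control replicates 1 and 2 (adjusted p = 0.0998). The acyl-CoA binding protein dbi rose by 0.66 ± 0.13 at 1x and 0.61 ± 0.13 at 0.5x (adjusted p = 0.00482 and 0.0157). In the list of other mitochondrial and acyl-CoA genes, the 2 called lower at 1x were the isovaleryl-CoA dehydrogenase ivd (-0.59 ± 0.16, adjusted p = 0.0164) and the synthetase acsl3a (-0.69 ± 0.24, adjusted p = 0.0418).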
